A study of Mus musculus with 40 samples.

Results

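Ribosomal protein genes encode the protein parts of the cytosolic ribosome. They were chosen by symbol alone: Rps or Rpl followed by a number, with or without a final a, x or y, together with Rplp0, Rplp1, Rplp2 and Rpsa. Among the 55492 genes counted, 76 carried such a symbol, and the 75 with at least 20 counts over all 40 cells were kept. The gene left out, Rps10, had 3 counts. The 75 genes are 29 of the small subunit and 46 of the large subunit, and 4 of them (Rpl10, Rpl36a, Rpl39 and Rps4x) lie on the X chromosome. The rule leaves out pseudogenes and germline copies such as Rpl10l and Rpl39l, whose values are given beside those of their parent genes.

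The cells were single spermatocytes from testes of C57BL/6J mice 6 to 8 weeks old, enriched by centrifugal elutriation, a separation by size and density. The names of 20 libraries give the stage as Pachytene, and 20 as Metaphase I. One protocol text stands on every library and describes 4 µM okadaic acid for 5 h, an inhibitor of the protein phosphatases PP1 and PP2A, as the treatment that brings spermatocytes to metaphase I. The Metaphase I cells were taken as treated from their names, so stage, drug and time in culture cannot be told apart, and the sources used here do not say whether Pachytene cells were also kept in culture. The labels name no allele, transgene or other treatment for either group. They name no animal or culture either, so the 20 cells of a group count as 1 sample, and differences between groups are described without a test.

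A ribosome has a small subunit that reads the mRNA and a large subunit that joins amino acids, and each ribosomal protein is needed in about the same amount as the others. The mRNAs of these proteins begin with a run of pyrimidines, the 5′ terminal oligopyrimidine or TOP motif, through which their translation is controlled together with that of elongation factors. In male meiosis the X chromosome is silenced from pachytene on, and autosomal copies of some X-linked ribosomal protein genes are known to be expressed in the germ line.

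The stretches around the start sites of 8 genes are shown because they cover the 2 most abundant genes, 2 X-linked genes with their autosomal copies, and 1 pair of near-identical genes. Each runs from 45 bases before the RefSeq start site to 20 bases from it, 5′ to 3′ on the strand of the gene, in build GRCm38.p6. Capitals mark CTTTC, a C followed by pyrimidines of the kind that opens TOP mRNAs. A gene without capitals can still have CTTTC within 50 bases of its start on either side, as Rpl39 does.
Rplp0, chr5:115559422-115559486, plus strand: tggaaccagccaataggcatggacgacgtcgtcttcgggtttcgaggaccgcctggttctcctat
Rpl13, chr8:123102305-123102369, plus strand: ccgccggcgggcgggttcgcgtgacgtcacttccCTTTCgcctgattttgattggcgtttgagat
Rpl10, chrX:74270771-74270835, plus strand: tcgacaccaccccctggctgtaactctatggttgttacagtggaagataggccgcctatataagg
Rpl10l, chr12:66284382-66284446, minus strand: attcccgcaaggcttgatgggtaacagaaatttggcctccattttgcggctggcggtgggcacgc
Rpl39, chrX:37085203-37085267, minus strand: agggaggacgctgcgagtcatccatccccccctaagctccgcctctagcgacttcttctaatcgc
Rpl39l, chr16:10170183-10170247, plus strand: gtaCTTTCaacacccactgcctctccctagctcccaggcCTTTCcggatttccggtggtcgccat
Rps27, chr3:90213629-90213693, minus strand: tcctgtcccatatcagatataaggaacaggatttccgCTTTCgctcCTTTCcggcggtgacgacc
Rps27rt, chr9:114982720-114982784, minus strand: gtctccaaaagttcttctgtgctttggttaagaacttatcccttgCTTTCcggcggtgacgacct

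RefSeq promoters could be matched for 55 of the 75 genes. Where a gene had several starts, the first listed was used. CTTTC on the strand of the gene, within 50 bases of the start on either side, was present in 28 of these 55 (50.9%) and in 12.6% of all 27025 promoters in the table. On both strands the shares were 58.2% and 23.1%. CTTTT, searched in the same 100 bases on the gene's strand, was in 23.6% and 10.9%. CCGGAAG, a core of the sites of ETS family factors, was in 12.7% of the 55 and 2.95% of all promoters in the same search, and in 6.08% of the 11080 promoters of genes with at least 20 counts. On both strands of all 300 bases the shares were 38.2%, 9.12% and 17.3%. Among those 11080 promoters CTTTC, in the 100 bases on the gene's strand, was in 9.96% and CTTTT in 8.02%. Rpl10 and Rpl10l shared no run longer than 8 bases in these 300 bases, and neither did Rpl39 and Rpl39l. Rps27 and Rps27rt shared 38 bases that begin at the start site or 1 base after it. A match here is a string of letters and was not tested as a binding site.

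Totals ran from 165048 to 2325564 counts per cell in Pachytene (median 730979) and from 198117 to 1497037 in Metaphase I (median 540662). Of the 13 pachytene markers, 12 were counted in every cell of both groups, and their summed level had medians of 23104 and 23758 CPM (counts per 1000000 of the cell's total). In 8 libraries X-linked genes held over 0.3% of counts: Pachytene replicates 2, 3, 7 and 19 and Metaphase I replicates 3, 7, 17 and 19. In the 4 Pachytene ones the 15 spermatid markers summed to 8719 to 9567 CPM, against 753 to 3078 CPM in the other 16. Metaphase I replicate 19 stood apart from all others, with 14086 CPM of the 12 Sertoli cell markers, 3049 CPM of the 16 immediate early genes and the lowest level of the pachytene markers, 10794 CPM. In that cell 7 of the 12 Sertoli markers had a count, and Clu alone held 10454.5 CPM. In the other 39 cells the Sertoli markers reached at most 214 CPM, and 6 of the 12 had no count in any Pachytene cell. Results that rest on these libraries are given with and without them.

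Ribosomal protein genes held about 4% of the counts of a typical spermatocyte in both groups. The share in a Pachytene cell ran from 2.66% to 6.45% with a median of 3.92% (mean 4.11% ± 1.08, SD, 20 cells). In a Metaphase I cell it ran from 1.59% to 6.65% with a median of 3.68% (4.14% ± 1.33, SD, 20 cells). The ranges overlapped over nearly their whole length, and the means differed by far less than 1 SD. Shares over 6% were found in 1 Pachytene cell, replicate 16 with 6.45%, and in 4 Metaphase I cells, replicates 1, 13, 14 and 15 with 6.06%, 6.65%, 6.47% and 6.33%. The lowest share, 1.59%, was that of Metaphase I replicate 18. In that cell transcripts of the mitochondrial genome held 11.2% of counts, and in Metaphase I replicate 19 they held 17.5%, against a median of 1.7% in Metaphase I and 2.16% in Pachytene. Their part in the shares was not tested.

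**Figure D1:**
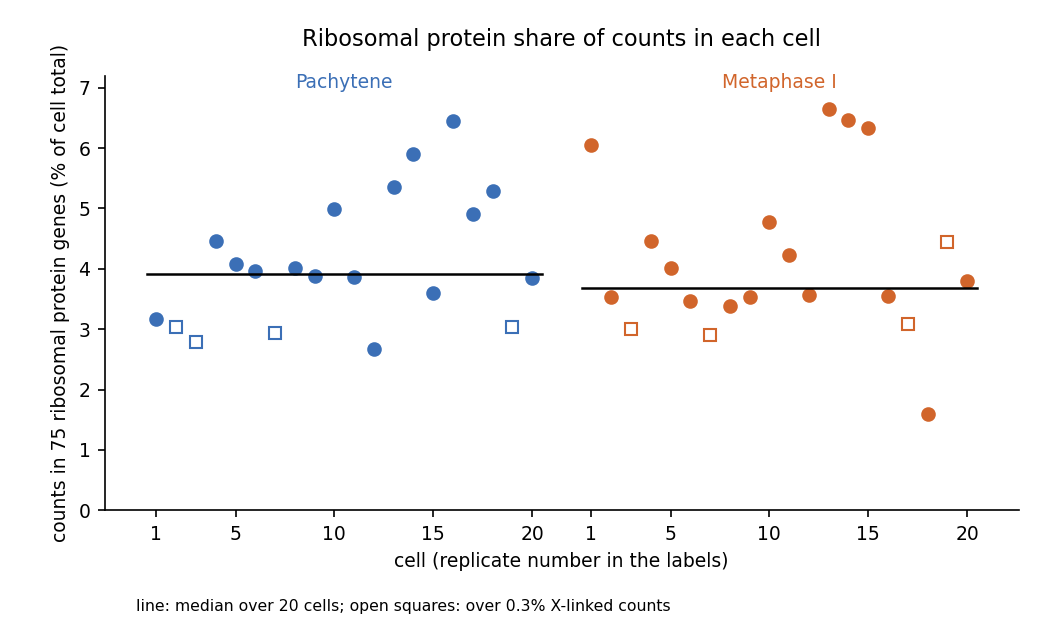
Share of each cell's counts in the 75 ribosomal protein genes (y axis, % of the cell's total) by replicate number (x axis), with Pachytene at left and Metaphase I at right. Points are cells, open squares the 8 cells with over 0.3% X-linked counts, and lines the medians of 3.92% and 3.68%; 4 Metaphase I cells and 1 Pachytene cell lie above 6%.

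Over the pooled counts of all 20 cells, the Pachytene share was 4.09%, with a Clopper-Pearson 95% interval of 4.08% to 4.1%. The pooled Metaphase I share was 4.59%, with an interval of 4.578% to 4.601%. These intervals cover counting error only. Deep cells carry more weight in a sum, and in Metaphase I the share was higher in deeper cells (Spearman rho 0.60 over 20 cells, against 0.19 in Pachytene). Metaphase I replicate 13 was both the deepest of its group and the one with the highest share, and without it the summed Metaphase I share was 4.34%. With each cell given equal weight the 2 shares were 4.11% and 4.14%. Without the 8 libraries with X-linked counts the summed shares were 4.42% and 4.83%. The 4 Pachytene libraries among them had shares of 2.79% to 3.04%, and of the 4 Metaphase I libraries 3 had 2.90% to 3.09% while replicate 19 had 4.45%. In the 4 Pachytene libraries the low shares came with the high levels of spermatid markers given above. Metaphase I replicates 3, 7 and 17 had 8472, 4083 and 3527 CPM of these markers, and replicate 19 had 673 CPM. The part of those transcripts in the result was not tested.

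Both subunits moved together from cell to cell. The small subunit genes took 39.1% to 43.6% of the ribosomal protein counts in Pachytene cells (median 40.7%) and 39.4% to 43.6% in Metaphase I cells (median 41.0%). While the whole share varied more than 2-fold within a group, this split varied by a few percentage points. Across cells the small and large subunit shares had a Spearman rho of 0.98 in Pachytene and 0.97 in Metaphase I (Pearson 0.99 in both, 20 cells each). The points of such a correlation share the cell's library and its total.

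**Figure D2:**
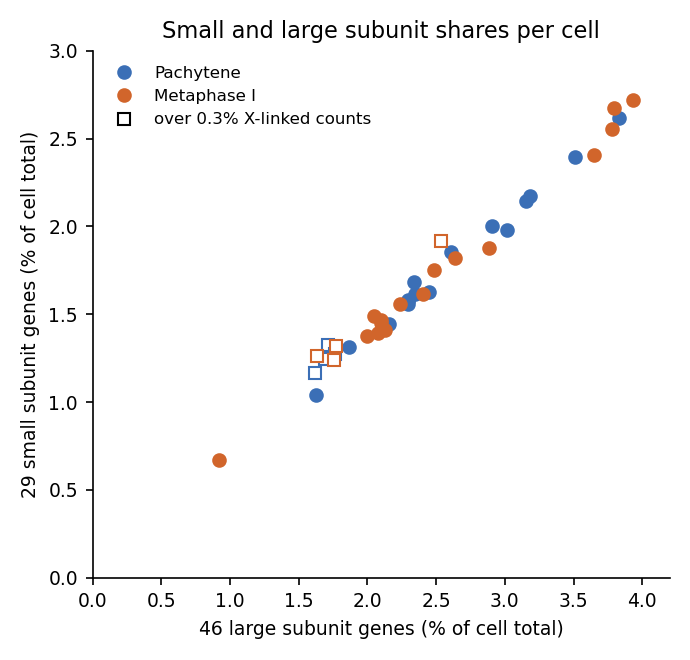
Share of counts in the 29 small subunit genes (y axis, % of cell total) against the 46 large subunit genes (x axis, % of cell total), 1 point per cell. Cells of both groups lie along 1 line, with the small subunit at 39.1% to 43.6% of ribosomal protein counts in every cell.

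Few ribosomal protein genes differed by more than 2-fold between the summed groups. The log2 ratio of Metaphase I over Pachytene, on summed CPM + 1, had a median of 0.20 over the 75 genes (quartiles 0.10 and 0.31) and of -0.001 over all 16174 genes with at least 20 counts. It was above 0 for 70 of 75 genes, but for only 41 with equal weight per cell, where the median fell to 0.04. Scaling by TMM or median-of-ratios factors was done with equal weight per cell too, and gave 38 genes and medians of 0.0018 and 0.01. Higher by over 2-fold were 4 of 75 genes, Rps4x, Rpl10, Rpl36a and Rpl13a, and lower by as much none, against 8.49% of all genes higher and 9.81% lower. Rps4x, Rpl36a and Rpl39 reached the minimum of 20 counts only through Metaphase I replicate 19. Their higher level in Metaphase I is therefore bound up with the choice of members. They were kept among the 75 when that cell was left out. Without Metaphase I replicate 19 no member was past 2-fold in either direction, against 4.98% and 9.94% of all genes. Without Metaphase I replicate 13 the 4 genes and Rpl39, 5 in all, were over 2-fold higher and none lower, against 7.56% and 8.45% of all genes. Without the 8 libraries with X-linked counts none was past 2-fold, against 5.65% higher and 3.69% lower. The small subunit genes had a median of 0.16 and the large subunit genes one of 0.21.

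**Figure D3:**
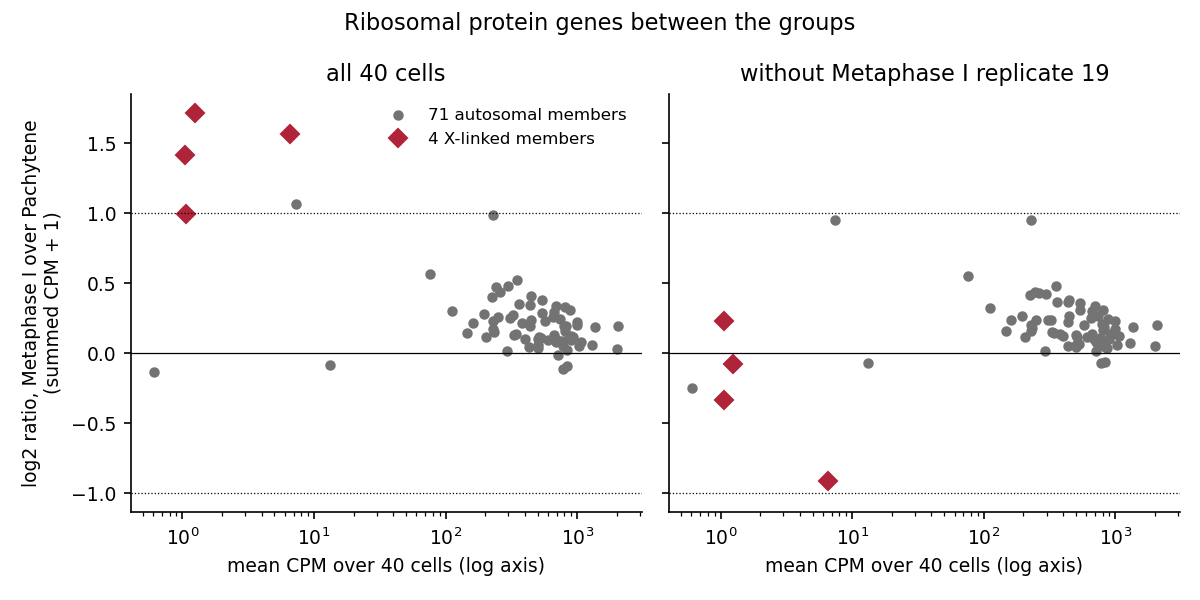
Log2 ratio of summed CPM + 1, Metaphase I over Pachytene (y axis), against mean CPM over 40 cells (x axis, log), for the 75 genes with all cells (left) and without Metaphase I replicate 19 (right); dotted lines mark 2-fold. The X-linked genes (diamonds) lie at the low end of CPM and leave the top of the plot when that cell is left out, while genes with a mean over 100 CPM other than Rpl14 lie between -0.11 and 0.52 in the left panel.

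The 6 most abundant genes by CPM took 21.5% of the ribosomal protein counts in Pachytene and 20.7% in Metaphase I. Rplp0 (chromosome 5, 115559467 to 115563727) encodes the base of the stalk of the large subunit that binds elongation factors. Its level had a lowest, median and highest value of 1300, 1797 and 3290 CPM in Pachytene cells and 536, 1919 and 3584 CPM in Metaphase I cells. The groups overlapped throughout, and the summed log2 ratio was 0.19, or -0.02 with equal weight per cell. Rpl13 (chromosome 8, 123102350 to 123105244) had 1148, 1866 and 3554 CPM in Pachytene and 690, 1784 and 3294 CPM in Metaphase I, a summed ratio of 0.03. The other members of this set, Rps14, Rpl41, Rps24 and Rpl26, had summed levels of 1067 to 1325 CPM in Pachytene and 1110 to 1505 CPM in Metaphase I. Per kilobase of exon the highest value was that of Rpl36, whose exons have 383 bases, with 2235 and 2066 CPM per kb, followed in Pachytene by Rps29 with 1247 and Rplp0 with 1185 CPM per kb. Rps29 was chosen after its values were seen. The libraries count 3′ ends, for which exon length is a poor scale, so this order is not one of transcript numbers.

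Transcripts of the stalk proteins were counted in every cell. Rplp1 and Rplp2, the acidic proteins that bind Rplp0 in the stalk, had medians of 551 and 474 CPM over Pachytene cells and 456 and 434 CPM over Metaphase I cells. Their summed log2 ratios were 0.23 and 0.06, and with equal weight per cell -0.04 and -0.08. Rpl3, a large subunit protein near the peptidyl transferase centre, went from 230 to 260 CPM in the sums. Rps6, the small subunit protein phosphorylated by S6 kinase, went from 144 to 160 CPM. For both, equal weight per cell gave a ratio below 0 (-0.03 and -0.12).

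Rpsa, the small subunit protein also known as the laminin receptor, and Rps3, at the mRNA entry, had higher ratios than these. Rpsa went from 207 to 273 CPM (log2 ratio 0.40, equal weight 0.22) and Rps3 from 218 to 302 CPM (0.47, equal weight 0.24). Rps27a, which is made as a fusion to ubiquitin, went from 774 to 973 CPM (0.33, equal weight 0.05). In all 3 genes the ranges of the groups overlapped, for example 18.1 to 476 CPM and 30.2 to 499 CPM for Rps3.

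Rpl14 (chromosome 9, 120571444 to 120574654), a large subunit protein, had the highest ratio among abundant members. Its lowest, median and highest levels were 2.01, 153 and 624 CPM in Pachytene and 7.54, 224 and 693 CPM in Metaphase I. The summed level was 163 and 324 CPM, a 1.99-fold difference (exact conditional 95% interval 1.89 to 2.08, counting error only). Metaphase I replicate 13 gave 23.3% of the Metaphase I counts, and without it the log2 ratio was 0.77 in place of 0.98. With equal weight per cell it was 0.42. The cells of the groups overlapped over most of their range.

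The members with the lowest ratios were close to no difference. Rpl36 (856 and 791 CPM summed), Rps20 (912 and 855), Rps26 (773 and 765) and Rps21 (311 and 315) had log2 ratios of -0.11, -0.09, -0.01 and 0.02. Rpl23a (14.1 and 13.3 CPM) had -0.08. Rpl24 had 13 and 8 counts in all, so that its ratio of 0.79 had an interval of 0.28 to 2.06.

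The 4 X-linked genes were nearly absent from spermatocytes of both groups, and almost all of their Metaphase I counts came from 1 cell. Rpl10, whose protein completes the large subunit, was represented by 54 Pachytene and 151 Metaphase I counts. Replicate 19 held 136 of the latter (90.1%). Its level had a lowest, median and highest value of 0, 0.747 and 14.6 CPM in Pachytene, and of 0, 0 and 193 CPM in Metaphase I. Apart from replicate 19 no cell was above 14.6 CPM, and 9 Pachytene and 12 Metaphase I cells had no count. All 100-base stretches at the 3′ end of Rpl10 and of Rpl36a also occur in other annotated genes, so reads of these 2 genes can be lost or assigned elsewhere, and their counts are uncertain.

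Rps4x, of the small subunit, had 1 Pachytene count and 34 Metaphase I counts, all 34 in replicate 19 (43.8-fold, interval 7.35 to 1780). Rpl36a had 2 and 27 counts, 23 of them in replicate 19. Rpl39, a very small protein of the exit tunnel, had 8 and 26 counts: all 8 of the Pachytene counts were in replicate 7, one of the libraries rich in spermatid markers, and 24 of the Metaphase I counts were in replicate 19. Of the 4 X-linked genes, all but Rpl10 met the count minimum only through replicate 19. The 4 genes together had 3.68 CPM in Pachytene and 17.4 CPM in Metaphase I. Without Metaphase I replicate 19 the Metaphase I level was 1.61 CPM, and without Pachytene replicate 7 the Pachytene level was 1.5 CPM. Without all 8 libraries the levels were 1.17 and 1.41 CPM. Those libraries were picked for their X-linked counts, so lower levels without them follow in part from that choice. Leaving out replicate 19 turned the log2 ratio of Rpl10 from 1.57 to -0.91, of Rpl39 from 1.00 to -0.33 and of Rps4x from 1.72 to -0.08, and brought that of Rpl36a from 1.42 to 0.23. Pachytene replicate 7 held 63.0% of the Pachytene counts of Rpl10. Without the 8 libraries the log2 ratio of Rpl10 was 0.03.

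Autosomal copies of 3 of these genes were counted in every cell. Rpl10l (chromosome 12, 66283379 to 66284401) had a lowest, median and highest level of 163, 279 and 500 CPM in Pachytene and 125, 308 and 637 CPM in Metaphase I. It made up 99.0% of the Rpl10 and Rpl10l counts in Pachytene (interval 98.7% to 99.2%), and 96.7% in Metaphase I or 99.7% without replicate 19. In 39 of 40 cells Rpl10l was above Rpl10. The exception was Metaphase I replicate 19, where Rpl10l had 40.1% (33.7% to 46.8%). Because the 3′ end of Rpl10 recurs in 9 other genes and that of Rpl10l in none, these shares may be too high for Rpl10l. Per kilobase of exon the summed Pachytene levels were 289 CPM per kb for Rpl10l and 1.49 for Rpl10. The coding sequences of both have 642 bases, of which 544 (84.7%) are identical, while the start regions printed above share no more than 8 bases in a row.

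Rpl39l (chromosome 16, 10170226 to 10174911) had 739, 1029 and 1425 CPM in Pachytene and 619, 1056 and 1442 CPM in Metaphase I, or 1246 CPM per kb in the Pachytene sum. It held 99.96% of the counts of the pair in Pachytene and 99.8% in Metaphase I. Even in Metaphase I replicate 19 it held 94.9%. Rpl39 and Rpl39l both encode 51 residues and are identical at 130 of 153 coding bases (85.0%). Rps4l (chromosome 6, 148354656 to 148355598) had 227, 366 and 667 CPM in Pachytene and 89.3, 342 and 506 CPM in Metaphase I, and held 99.99% and 99.3% of the counts of its pair with Rps4x. GENCODE M21 lists Rps4l as a transcribed processed pseudogene, so whether a protein is made from it is not shown by a count. The summed log2 ratios of Rpl10l, Rpl39l and Rps4l were 0.12, 0.06 and -0.14. Rpl36al, the autosomal copy of Rpl36a, had only 17 counts in each group.

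**Figure D4:**
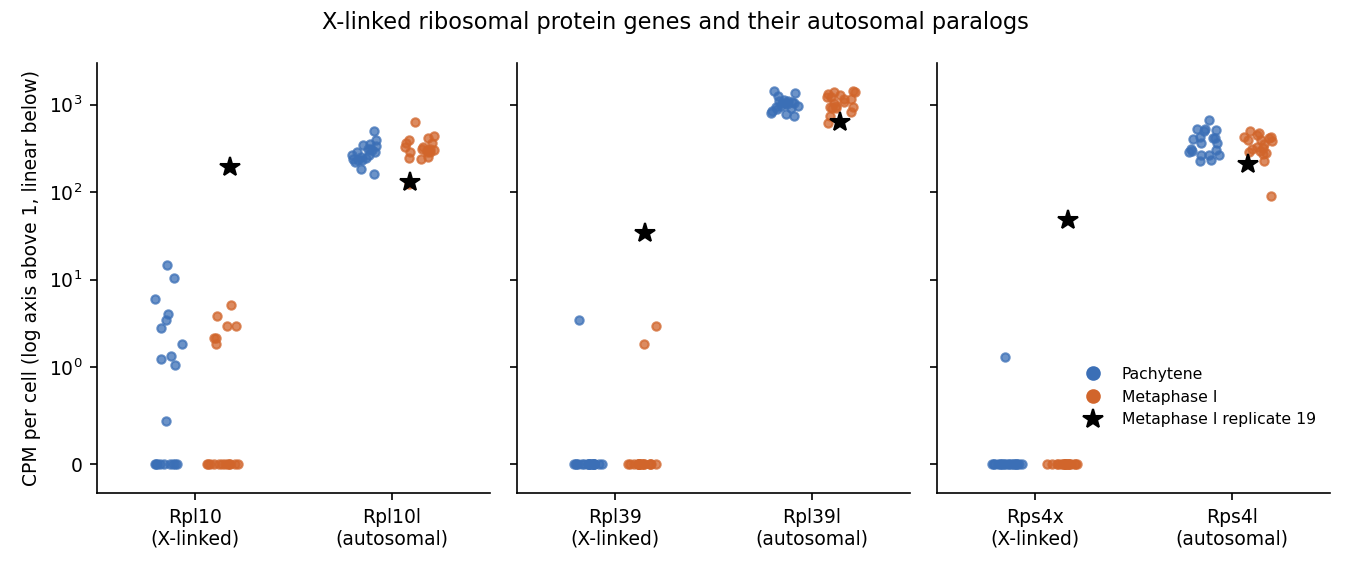
CPM in each cell (y axis, log above 1 and linear below) of 3 X-linked ribosomal protein genes and their autosomal copies, Pachytene and Metaphase I side by side. The copies lie between 89.3 and 1442 CPM in every cell, while the X-linked genes are at 0 or below 15 CPM except in Metaphase I replicate 19 (star), where Rpl10 reached 193 CPM.

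Other copies differed in how they shared the counts of their pair. Rpl22l1 took 59.9% of the counts of its pair with Rpl22 in Pachytene and 53.3% in Metaphase I, at 166 and 157 CPM. Rps27l took 23.7% and 21.8% of its pair with Rps27, at 242.9 CPM in both groups. Rps27rt, whose 252 coding bases are identical to those of Rps27, took 9.17% and 10.1%, and reads of these 2 genes can be assigned to either, so the values are uncertain. Rpl7l1 had 37.03 and 34.72 CPM. Of the 8 copies with at least 20 counts none was past 2-fold, against 8.49% of all genes higher and 9.81% lower. With only 8 genes this count says little. Their median log2 ratio was 0.03.

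Ribosomal proteins with other kinds of symbol were also measured. Fau, which encodes the small subunit protein eS30 fused to a ubiquitin-like protein, had 830 and 846 CPM (log2 ratio 0.03). Rack1, a scaffold protein on the small subunit, had 193 and 257 CPM (0.41, equal weight -0.02).

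Several of the genes with few counts share their place in the genome with another gene. On the same strand, 47.0% of the exon bases of Rpl24, 35.4% of Rpl13a and 20.6% of the omitted Rps10 lie under exons of another annotated gene, in each case a gene with 0 counts, and 24.5% of Rpl36al likewise. Among the 75 genes 2 had over 20% of their exon bases under a gene on the same strand, and 6 on the opposite strand. Of these 6 only Rpl23a, with 59.7% and 431 counts, was a gene of few counts. The others had 5094 to 14934 counts, with the largest overlap, 66.2%, in Rpl35. A count by gene commonly leaves out reads that fall on more than 1 gene, and whether that lowered these genes was not tested. Rpl13a, one of the 4 genes past 2-fold, had only 86 and 155 counts (2.32-fold, interval 1.77 to 3.06), and its log2 ratio of 1.07 was 0.95 without Metaphase I replicate 19.

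Near-identical sequence elsewhere in the genome is a second source of uncertainty. Of all 100-base stretches in the last 300 bases of a gene's first coding GENCODE M21 transcript, a median of 27.4% over the 75 genes also occurred in transcripts of another gene. The share was 0% for 31 genes, over 50% for 26, and 100% for 4 (Rpl10, Rpl36a, Rpl9 and Rps27). Over the 75 genes the share had a Spearman rho of -0.11 with the summed count. Rpl39, Rpl14, Rplp0 and Rpl10l had 0% and Rps4x 14.9%. How reads were assigned was not tested. The 319 rows named as ribosomal protein pseudogenes held 3.00 counts per 100 counts of the members in Pachytene and 3.6 in Metaphase I, with 11.6 in Metaphase I replicate 18.

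Cells high in 1 ribosomal protein gene were high in nearly all others. Among the 68 genes with a mean of at least 50 CPM, the Spearman rho of a gene with the share of all other members had a median of 0.85 over 20 Pachytene cells and 0.83 over 20 Metaphase I cells. It was over 0.5 for 65 and 66 of the 68 genes, and below 0 for none. The lowest was 0.17, that of Rpl30 in Pachytene. In the band of 247 to 788 CPM, 37 members had a median of 0.84 in Pachytene and 0.83 in Metaphase I, and 645 other genes one of 0.05 and -0.04. These correlations run over cells and share each cell's depth and total. In the same band the median coefficient of variation (CV, SD over mean) was 0.33 in Pachytene and 0.38 in Metaphase I for members, slightly above the 0.32 and 0.34 of the other genes.

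Genes of the translation machinery varied in how they followed the ribosomal protein share. Of the 20 other TOP mRNA genes 11 had a Spearman rho over 0.5 with it in Pachytene and 9 in Metaphase I, 5 and 2 were below 0, and the medians were 0.56 and 0.49. Summed, they had a rho of 0.88 in Pachytene and 0.73 in Metaphase I, and the elongation factor Eef1a1 among them had 0.90 and 0.84. In contrast Eef2, the translocation factor, had 0.21 and -0.01 and Hnrnpa1 had -0.64 and -0.28. The 78 mitochondrial ribosomal protein genes, which are encoded in the nucleus and serve another ribosome, had 0.82 and 0.85. Fau had 0.85 and 0.82 and Rack1 0.91 in both groups. The germline copies did not follow, with -0.18 and 0.28 for Rpl10l, -0.69 and -0.23 for Rpl39l, and -0.54 and -0.16 for Rps4l. Without the 8 libraries with X-linked counts Rpl10l had 0.05 and 0.35, Rpl39l -0.54 and 0.11, and Rps4l -0.50 and 0.02. Of the other copies, over all cells, Rps27l had 0.28 and 0.76, Rpl22l1 -0.06 and -0.31, and Rps27rt -0.02 and 0.02.

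The pachytene markers did not follow the share as a group. Their summed level had a rho of 0.57 in Pachytene and 0.15 in Metaphase I, or 0.36 and -0.24 without the 8 libraries. Of the 13 genes 6 had a rho over 0.5 in Pachytene and 5 in Metaphase I, and 5 were below 0 in each. Chosen for their high values, the list's Piwil1 and Hspa2 had 0.90 and 0.83 in Pachytene and 0.59 and 0.73 in Metaphase I. Chosen from the same list for its low values, the meiotic cyclin gene Ccna1 had -0.70 and -0.65. The germline phosphoglycerate kinase gene Pgk2, chosen likewise, had -0.83 and -0.74. The 15 spermatid markers, another list, were also opposite to the share, with -0.77 and -0.64. The 4 Metaphase I cells over 6% had 10.7 to 31.4 CPM of Ccna1 and the Pachytene cell over 6% had 28.0 CPM, while the group medians were 367 CPM in Metaphase I and 253 CPM in Pachytene. Without the 8 libraries with X-linked counts, the rho of Ccna1 was -0.94 in Pachytene and -0.77 in Metaphase I over 16 cells each. Chosen after their values were seen, the cyclin B gene Ccnb1 had -0.75 and -0.69 over 20 cells and -0.79 and -0.81 over these 16. Aurka, a kinase of spindle assembly also chosen so, had -0.09 and -0.39 over 20 cells and -0.81 and -0.71 over the 16.

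**Figure D5:**
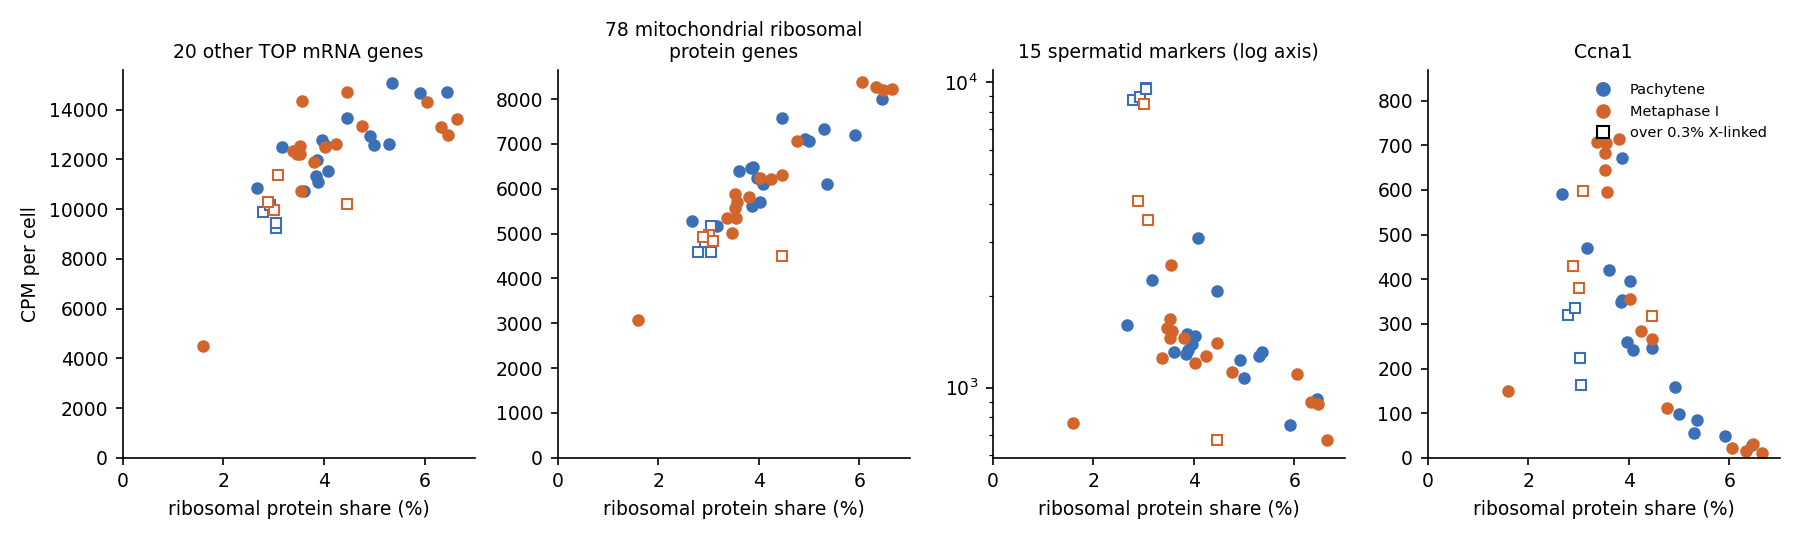
CPM per cell (y axis, log for the spermatid markers) of the 20 other TOP mRNA genes, the 78 mitochondrial ribosomal protein genes, 15 spermatid markers and Ccna1 against the ribosomal protein share (x axis, % of cell total). The first 2 rise along the share in both groups. Ccna1, chosen from the pachytene markers for its low rho, is below 32 CPM in all cells with a share over 6%. The cell at 1.59% is Metaphase I replicate 18.

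Members differed in how evenly cells held them. The lowest CV over 40 cells among the 68 genes was 0.20 for Rps27, followed by Rpl30, Rpl18 and Rpl26 with 0.22 each. The highest were those of Rpl10a (0.92), Rpl14 (0.82), Rpl22 (0.68) and Rps3 (0.58). Counting error alone would give 0.15 for Rpl10a and 0.09 for Rpl14.

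For some members, part of this spread in Pachytene lay in the libraries rich in spermatid markers. In the 4 such Pachytene libraries Rpl14 had 2.01 to 21.9 CPM, against 51.8 to 624 CPM in the other 16. Rps3 had 18.1 to 48.8 against 109 to 476 CPM, and Rps27a 90.6 to 246 against 451 to 1657 CPM. None of these Pachytene ranges overlap. For Rplp0 the ranges lay closer together, at 1300 to 1494 and 1566 to 3290 CPM, and for Rps27 they overlapped, at 597 to 818 and 540 to 1057 CPM. Rpl10a had 8.54 to 16.3 CPM in the 4 libraries and 5.98 to 244 CPM in the others. Rpl22 had 52.5 to 110 against 22.97 to 284.1 CPM. These 2 genes varied widely without the 4 libraries too, and so did Rpl14 over its 51.8 to 624 CPM. Rpl30 was not lower in the 4 libraries, at 343.5 to 446.2 against 219.1 to 521.1 CPM. Rps27a was not among the 4 members of highest CV. In Metaphase I the 4 libraries with X-linked counts, which include replicate 19, overlapped the other 16 in these genes. Rpl14 had 7.54 to 447 against 77.8 to 693 CPM and Rps3 30.2 to 430 against 107 to 499 CPM. Rps27a had 123 to 1250 against 196 to 1804 CPM. The part of the spermatid transcripts in these values was not tested.

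Genes that act on ribosomal protein mRNAs or carry the proteins to the ribosome were counted against the same background, 8.49% of all genes over 2-fold higher and 9.81% lower. Of 20 other TOP mRNA genes 1 was over 2-fold higher, Pabpc4, whose 19 Metaphase I counts all came from replicate 19, and the median log2 ratio was 0.04. Of 12 measured genes that control ribosomal protein mRNAs, Eif4ebp1, an inhibitor of cap-dependent translation, was higher, and replicate 19 held 93.6% of its counts in that group. Rptor, a subunit of the mTORC1 kinase, was lower (log2 ratio -1.24, or -0.35 without the 8 libraries). Of 11 measured chaperones and assembly factors Rrs1 was at 1.00, from 14.8 to 30.7 CPM, and fell to 0.54 without Metaphase I replicate 13. The median of that list was 0.45, and 0.32 without that cell. Of 75 measured mitochondrial ribosomal protein genes Mrpl49 (1.23) and Mrpl19 (1.17) were higher, none were lower, and the median was 0.18.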

How the data were processed

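The authors deposited whole-number counts per gene for 40 single-cell libraries made by a modified STRT-seq method, in which 3′ ends are kept, per the labels' protocols. UMI-tools, STAR, featureCounts and GRCm38 are named without versions, per the submitters' processing notes. The sources used here give neither the strand setting nor whether PCR copies were collapsed. If counts are reads, the intervals printed are too narrow. Each group of 20 cells was treated as 1 sample. Counts were summed by group and divided by the summed total (CPM), and log2 ratios used CPM + 1. A fold over 2 on that scale was counted. Intervals are exact at 95% and cover counting error only. Python 3.11.15, numpy 2.4.6, pandas 2.3.3, scipy 1.17.1 and edgeR 4.0.16 (TMM only) were used, and the code was tested on simulated counts. Alternatives weighted cells equally, or scaled them by TMM or by median-of-ratios factors and then also weighted them equally. Others used totals that left out mitochondrial genes, a pseudocount of 10, no minimum or 100 counts, or thinning to 340000 counts. Further ones used medians, or omission of the deepest cells, of 8 libraries or of each cell. Members and lists were chosen with earlier results of these data known. Genes named were the X-linked members, paralogs and genes outside the symbol rule, the 6 most abundant members, the 6 highest and 6 lowest ratios, the 4 highest and 4 lowest CVs, members named for their role, and up to 3 genes of each other list. Of the genes this rule took, 1 is not reported here. The TOP list, the control list, the assembly list and the marker lists were written by hand. Sequences and start sites are from RefSeq (GRCm38.p6), and transcripts and exons from GENCODE M21. No protein sequence was used here.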

Additional observations from a re-analysis of the deposited data

How the results depend on the processing

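The ribosomal protein share of Pachytene and Metaphase I was 4.11% and 4.14% with equal weight per cell, 4.131% and 4.076% after TMM scaling, 4.17% and 4.16% after median-of-ratios scaling, 4.18% and 4.73% over totals without mitochondrial genes, 4.11% and 4.39% after thinning (19 and 17 cells), 4.27% and 4.34% without the deepest cell of each group, 4.42% and 4.83% without the 8 libraries with X-linked counts, and 3.95% and 3.86% as sums of medians over cells. The median log2 ratio of the members was 0.045 with equal weight, 0.0018 with TMM, 0.014 with median-of-ratios, 0.11 with thinning, 0.041 without the deepest cells, 0.12 without the 8 libraries and -0.015 with medians, where 30 members were higher and 41 lower. No scaling moved the median of all genes by more than 0.03. The 4 members past 2-fold were 0 with a pseudocount of 10 CPM, 2 with at least 100 counts, 0 without the 8 libraries and 0 with medians. Without the 8 libraries 5.65% of all genes were higher and 3.69% lower. The share of all genes was not counted with that pseudocount, that minimum or medians. Among cells left out in turn it was counted only for Metaphase I replicates 13 and 19. Counts of members without that share are not a result about the members. The X-linked members had 2.76 CPM in Pachytene with equal weight, 2.63 with thinning, 1.5 without the deepest cells, 1.17 without the 8 libraries and 0.747 with medians. In Metaphase I they had 22.02 after TMM scaling, 26.01 after median-of-ratios scaling, 1.41 without the 8 libraries and 0 with medians. Leaving out each cell in turn gave shares of 3.93% to 4.27% and 4.34% to 4.71%, median log2 ratios of 0.10 (without Metaphase I replicate 13) to 0.24, 0 (without Metaphase I replicate 19) to 6 members past 2-fold, and X-linked levels of 1.5 (without Pachytene replicate 7) to 4.16 CPM in Pachytene and 1.61 (without Metaphase I replicate 19) to 19.5 CPM in Metaphase I. Reversed were Rpl10 at -0.81 with medians (-0.91 without Metaphase I replicate 19 to 2.38 as each cell was left out) and Rps4x at -0.10 without the 8 libraries (-0.079 without replicate 19 to 1.84). Of 30 named members 19 kept their sign with equal weight, 18 after either scaling, which also used equal weight, and 11 with medians. The cause was not tested. No paired analysis was possible because the replicate numbers only name cells and no result comes from a test.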
